A study of Mus musculus with 19 samples.

Results

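The genes described are those for the collagens, the laminins and a set of other extracellular matrix proteins in the mouse prostate. They were all genes whose single annotated symbol begins with Col, digits, the letter a and a digit (a collagen chain), with Lam, the letter a, b or c and a digit (a laminin chain), or with Lox (the lysyl oxidase family), together with named matrix proteins that include Fn1, Sparc, Dcn, Lum, Eln, Postn, Bgn, Nid1 and Tnc. This rule found 65 of the 18193 genes with 1 annotated symbol, measured by 128 probe sets, and 1 further gene that the rule names was not analysed here. Each gene was read from its probe set with the highest mean over 19 arrays. Of the 65 genes, 50 were above the array median on at least 4 arrays and were tested among 11728 genes.

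RNA from 2 prostate lobes, dorsolateral (DLP) and ventral (VP), was hybridised to a 3′ expression array, 1 sample per array. The groups were DLP of C57BL/6J mice on a high fat diet (HFD DLP, 4 arrays), DLP of C57BL/6J mice on a control diet (control DLP, 5 arrays), VP on the high fat diet (HFD VP, 5 arrays) and VP on the control diet (control VP, 5 arrays). All mice were 8 weeks old at the start and ate their diet freely for 12 weeks, and the labels give 5 mice per diet. The labels do not say which mouse gave each array, so every p-value speaks of spread among samples and not among known mice. The labels name no transgene or drug. The anterior lobe, which the labels also name, was not analysed here.

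The extracellular matrix of the prostate holds epithelial glands apart from a stroma of smooth muscle cells and fibroblasts. Fibrillar collagens give the stroma its tensile strength, type IV collagens and laminins form the basement membrane under epithelium and around smooth muscle cells, and type VI collagen forms beaded filaments next to that membrane. Lysyl oxidases cross-link collagen and elastin, small leucine-rich proteoglycans set the spacing of fibrils, and matricellular proteins such as periostin and tenascin C modify how cells adhere.

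Levels are on a log2 scale on which every array has a median of 1.85, and a difference of 1 is a doubling. A level was compared only with the level of the same probe set in another group. The text calls a difference past the threshold when limma's moderated test over all 11728 genes gave a Benjamini-Hochberg adjusted p under 0.05. The number of arrays limits the precision, and the smallest exact two-sided permutation p is 0.0079 for 5 arrays against 5 and 0.016 for 5 against 4.

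In these whole-lobe samples fewer cells of a type and less RNA per cell cannot be told apart. The spread of the matrix genes differed between groups, with a median SD of 0.13 in HFD DLP, 0.21 in control DLP, 0.26 in HFD VP and 0.25 in control VP. The prostate secretory and epithelial markers were present in all groups: none of the 7 luminal epithelial markers on the array stayed at or below the array median on every array of any group. HFD VP 3 had the highest summary of fibroblast markers (0.40 above the mean over arrays, on the log2 scale) and of macrophage markers (1.13), control VP 4 had the highest summary of adipocyte markers (1.19, from 2 markers), and HFD VP 2 and HFD DLP 1 had the highest summaries of seminal vesicle transcripts (4.14 and 2.56). Control DLP 2, 4 and 5 had the highest summaries of nerve and Schwann cell markers (1.75, 1.27 and 2.18, from 3 markers), with the other arrays at or below 0.68, and the part of those markers in the DLP results was not tested.

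Between the lobes, the matrix genes did not differ as a block. In mice on the control diet 11 of 50 were higher in DLP than in VP and 11 were lower, where 55% of all genes tested passed the threshold (28.2% higher and 26.8% lower). In mice on the high fat diet 13 were higher and 9 lower, against 52.9% of all genes (26.8% higher and 26.1% lower). In each diet that made 22 of 50, or 44%. The median difference of the 50 genes, DLP minus VP, was 0.05 in control mice and 0.12 in HFD mice, and that of all genes was 0.00 in both. Sorted values were identical on all arrays, which by itself tends to keep the all-gene median near 0.

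**Figure D1:**
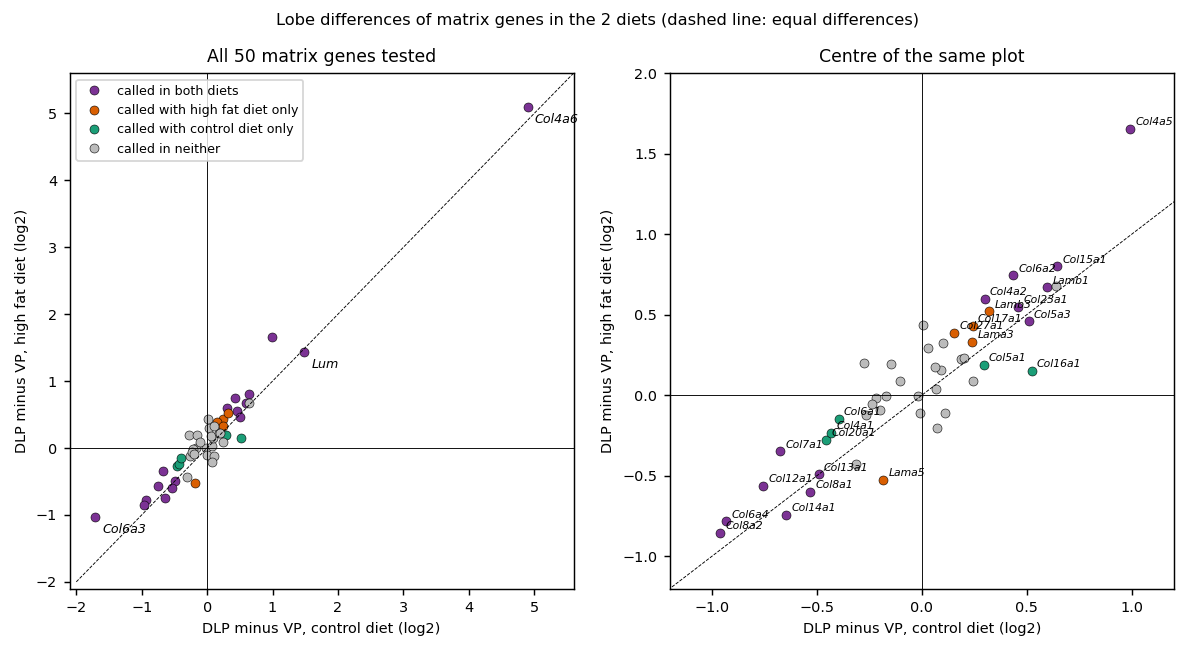
Each point is 1 of the 50 matrix genes, with its DLP minus VP difference (log2) in control mice on the horizontal axis and in HFD mice on the vertical axis, the right panel is the centre of the left at a larger scale, and colours mark in which diets the difference passed the threshold. Col4a6 stands at 4.90 and 5.10, Lum at 1.48 and 1.44, and Col6a3 at -1.71 and -1.03.

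Across the diets 9 genes were higher in DLP in both (Col15a1, Col23a1, Col4a2, Col4a5, Col4a6, Col5a3, Col6a2, Lamb1 and Lum) and 8 were lower in both (Col12a1, Col13a1, Col14a1, Col6a3, Col6a4, Col7a1, Col8a1 and Col8a2). In control mice only, 5 passed the threshold (Col16a1, Col20a1, Col4a1, Col5a1 and Col6a1), and in HFD mice only another 5 did (Col17a1, Col27a1, Lama3, Lama5 and Lamb3). None of the 10 had a lobe difference that differed between the diets past the threshold, and 23 genes passed in neither diet. Col13a1, Col6a4 and Col8a1 had enough arrays above the array median for the filter only because of VP. Col15a1, Col17a1 and Col5a3 had enough only because of DLP. In each case this was the lobe with the higher level, and the counts past the threshold or without overlap carry that limit. The levels of the 2 lobes did not overlap for 12 genes in control mice and for 14 in HFD mice, where 39.3% and 44.4% of all genes did not overlap. Of those 14, 13 passed the threshold, and the exception was Col20a1 (adjusted p = 0.085).

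Type IV collagen held the largest lobe difference among the matrix genes. The protein is a trimer of chains that assembles into the sheet of the basement membrane, and its 6 genes lie in head-to-head pairs: Col4a1 with Col4a2, Col4a3 with Col4a4 and Col4a5 with Col4a6. Chains 1 and 2 are the usual partners in most tissues, whereas chains 5 and 6 form a trimer that is known from the basement membrane of smooth muscle and of some epithelia. The 300-base windows around the start sites of Col4a6 and Col4a5, and of Col4a1 and Col4a2, are shown because head-to-head partners differed between the lobes by unlike amounts. They come from RefSeq on GRCm38.p6 and cover mostly the bases just before the start of the gene, 5′ to 3′ on its strand. The window of Col4a6 is chrX:141474027-141474326 on the minus strand and that of Col4a5 is chrX:141475169-141475468 on the plus strand, with 842 bases between them and no shared base. Capitals mark the GC box GGGCGG or its reverse CCGCCC, and the CCAAT box CCAAT or its reverse ATTGG.
Col4a6: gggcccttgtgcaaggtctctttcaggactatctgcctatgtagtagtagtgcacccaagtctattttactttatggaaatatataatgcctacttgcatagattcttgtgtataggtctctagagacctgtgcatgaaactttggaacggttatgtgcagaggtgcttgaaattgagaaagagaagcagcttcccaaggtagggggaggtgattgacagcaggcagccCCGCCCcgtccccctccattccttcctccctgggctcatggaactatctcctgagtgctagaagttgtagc
Col4a5: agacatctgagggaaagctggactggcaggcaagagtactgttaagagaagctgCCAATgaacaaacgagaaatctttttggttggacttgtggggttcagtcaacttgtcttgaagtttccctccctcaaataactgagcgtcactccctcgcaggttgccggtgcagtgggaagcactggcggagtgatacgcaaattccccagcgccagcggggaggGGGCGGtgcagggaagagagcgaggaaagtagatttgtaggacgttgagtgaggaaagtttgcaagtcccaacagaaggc

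Each of these windows held 1 GC box, which 35.7% of 32851 such promoter windows held, and the window of Col4a5 also held 1 CCAAT box, which 37.4% held. Neither held TATAAA (13.6% of windows; reverse TTTATA) or the hexamer AGAACA of androgen response elements (19% of windows; reverse TGTTCT), on either strand. The motifs searched did not overlap in these windows. The windows of the other pair are chr8:11312777-11313076 on the minus strand for Col4a1 and chr8:11312555-11312854 on the plus strand for Col4a2. Capitals mark the 78 bases that they share, read from opposite strands.
Col4a1: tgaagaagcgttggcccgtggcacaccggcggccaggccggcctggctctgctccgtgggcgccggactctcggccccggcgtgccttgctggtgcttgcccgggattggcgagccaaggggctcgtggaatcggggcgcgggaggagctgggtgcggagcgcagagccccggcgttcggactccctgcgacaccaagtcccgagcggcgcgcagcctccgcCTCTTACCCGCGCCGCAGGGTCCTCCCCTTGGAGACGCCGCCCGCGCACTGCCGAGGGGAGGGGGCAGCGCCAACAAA
Col4a2: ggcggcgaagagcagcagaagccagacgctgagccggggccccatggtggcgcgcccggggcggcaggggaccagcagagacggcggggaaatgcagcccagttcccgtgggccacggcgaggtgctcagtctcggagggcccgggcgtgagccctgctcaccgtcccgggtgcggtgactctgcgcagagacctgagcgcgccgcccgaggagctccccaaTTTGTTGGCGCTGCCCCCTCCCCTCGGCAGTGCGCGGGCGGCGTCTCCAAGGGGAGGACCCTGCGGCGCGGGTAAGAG

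The windows of this pair were 74% G or C for Col4a1 and 73.7% for Col4a2, against 48.3% for Col4a6, 52.7% for Col4a5 and a median of 52.7% over all windows. The window of Col4a1 held 1 GC box and that of Col4a2 held 3, and each held 1 CCAAT box. The GC box of Col4a1 lies in the shared bases, so it is also 1 of the 3 of Col4a2. Neither window held TATAAA or AGAACA on either strand. A match is a description of the letters and not of a site in use.

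Col4a6 had levels of 7.26, 7.07, 7.65 and 7.11 in HFD DLP and 7.41, 6.81, 6.99, 7.24 and 7.25 in control DLP, against 2.40, 2.04, 2.21, 1.97 and 2.24 in HFD VP and 2.43, 2.04, 2.23, 2.50 and 2.00 in control VP. Every DLP array stood more than 4 log2 units above every VP array, and the VP levels lay just above the array median of 1.85. The difference was 4.90 ± 0.13 (SE) in control mice (29.9-fold, limma adjusted p = 1.3e-16) and 5.10 ± 0.14 in HFD mice (34.2-fold, limma adjusted p = 2e-16). The second probe set of Col4a6 gave 5.38 and 5.66.

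Col4a5, its head-to-head partner, had 5.69, 5.63, 5.81 and 5.43 in HFD DLP and 5.54, 5.68, 5.28, 5.62 and 5.45 in control DLP, against 3.80, 3.64, 4.27, 4.09 and 4.14 in HFD VP and 4.50, 4.13, 4.54, 5.05 and 4.39 in control VP. The lobes did not overlap in either diet, and control VP 4 was the VP array closest to DLP. The difference was 0.99 ± 0.14 in control mice (limma adjusted p = 6.1e-06) and 1.65 ± 0.15 in HFD mice (limma adjusted p = 1.5e-08). The second probe set gave 0.64 and 0.73, so the size depends on the probe set.

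Col4a1 and Col4a2 stood on opposite sides. Col4a1 was lower in DLP of control mice, at 5.86 ± 0.06 in control DLP and 6.29 ± 0.28 in control VP (SD, n = 5 each), a difference of -0.43 ± 0.10 (SE, limma adjusted p = 0.0017), and it did not pass in HFD mice (-0.23, limma adjusted p = 0.085). Its other probe set gave -0.11 and -0.26. Col4a2 was higher in DLP, at 4.74 ± 0.06 in control DLP and 4.44 ± 0.13 in control VP (SD, n = 5 each), with differences of 0.30 ± 0.08 in control mice (limma adjusted p = 0.0039) and 0.60 ± 0.09 in HFD mice (limma adjusted p = 7.6e-06). Col4a3 and Col4a4, whose chains join chain 5 in the kidney and other specialised membranes, did not pass the threshold in either diet, with differences between -0.28 and 0.20.

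**Figure D2:**
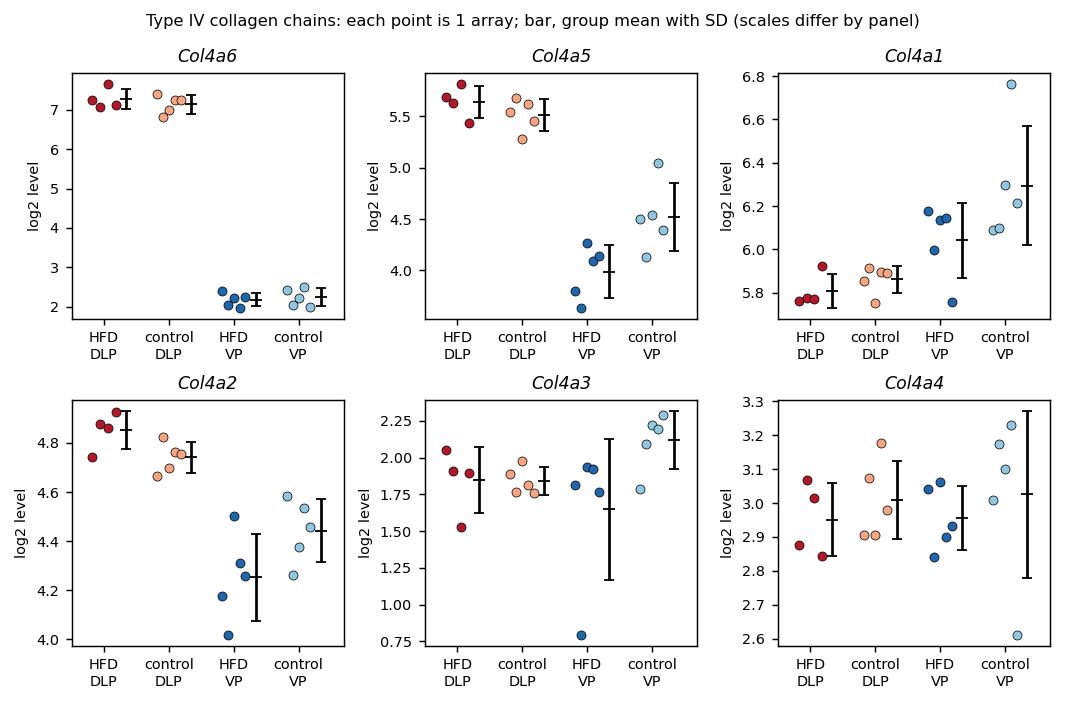
Levels (log2) of the 6 type IV collagen genes, with 1 point per array in HFD DLP, control DLP, HFD VP and control VP, and bars at the group mean with SD. Col4a6 lies at 6.81 or above on all DLP arrays and at 2.50 or below on all VP arrays, whereas Col4a3 and Col4a4 overlap between the lobes.

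All 4 type VI collagen genes that were tested passed the threshold between lobes in control mice, 1 higher and 3 lower in DLP, and 3 of 4 did in HFD mice. Over all genes tested 55% passed in control mice and 52.9% in HFD mice, and the list is small. Col6a3, the long alpha 3 chain that carries the fragment endotrophin at its end, had 5.35, 5.32, 5.44 and 5.42 in HFD DLP and 5.45, 5.17, 5.05, 5.52 and 5.40 in control DLP. In VP it had 6.41, 6.70, 6.16, 6.20 and 6.58 in HFD VP and 6.89, 7.21, 7.33, 7.16 and 6.56 in control VP. No DLP array reached the lowest VP array, and the difference was -1.71 ± 0.13 in control mice (3.27-fold, limma adjusted p = 1.4e-09) and -1.03 ± 0.14 in HFD mice (2.04-fold, limma adjusted p = 3.9e-06).

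Its partner chains did not follow it together. Col6a1 was lower in DLP of control mice (-0.40 ± 0.11, limma adjusted p = 0.0051) and not past the threshold in HFD mice (-0.15, limma adjusted p = 0.32). Col6a2 was higher in DLP in both diets (0.43 ± 0.15, limma adjusted p = 0.02, and 0.74 ± 0.16, limma adjusted p = 0.00064), although its lobes overlapped in control mice. Col6a4, a further type VI chain, was lower in DLP (-0.93 ± 0.13 and -0.78 ± 0.14, with no overlap in either diet), and its DLP levels of 1.02 to 1.71 were all under the array median. It thus reached the filter through VP alone, the lobe where it was higher. Col6a5 did not reach the filter.

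Of the 4 fibril-associated collagen genes tested 3 were lower in DLP of control mice (Col12a1, Col14a1 and Col20a1) and 1 was higher (Col16a1, 3.98 ± 0.13 in control DLP and 3.46 ± 0.20 in control VP, SD, n = 5 each). Over all genes tested 26.8% were lower and 28.2% higher in control mice, and 52.9% passed in HFD mice. Col12a1, which decorates the surface of collagen I fibrils, had a difference of -0.76 ± 0.15 in control mice (limma adjusted p = 0.00021) and -0.56 ± 0.16 in HFD mice (limma adjusted p = 0.005). In HFD mice 2 of the 4 passed, Col12a1 and Col14a1, both lower in DLP, and Col16a1 had 0.15 (limma adjusted p = 0.32).

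Both short-chain genes tested were lower in DLP in both diets, where 26.8% of all genes were lower in control mice and 26.1% in HFD mice. Col8a2, a chain of the hexagonal lattice of type VIII collagen, had 2.62, 2.33, 2.13 and 2.38 in HFD DLP and 2.38, 2.44, 1.99, 2.27 and 2.23 in control DLP, against 3.19, 2.92, 3.29, 3.46 and 3.23 in HFD VP and 3.50, 3.39, 2.98, 2.86 and 3.39 in control VP. The lobes did not overlap, with differences of -0.96 ± 0.13 in control mice (limma adjusted p = 4.7e-06) and -0.85 ± 0.14 in HFD mice (limma adjusted p = 4.1e-05). Col8a1 had -0.53 and -0.60 with limma adjusted p = 0.04 and 0.03, and its HFD DLP levels, 1.18 to 1.80, were all under the array median. Col7a1, the anchoring fibril that ties the basement membrane to the stroma, had -0.68 ± 0.13 (limma adjusted p = 0.00021) and -0.35 ± 0.14 (limma adjusted p = 0.042).

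Among the fibrillar collagens the abundant stromal chains did not separate the lobes: Col1a1, Col1a2 and Col3a1 had lobe differences from -0.26 to 0.30, with limma adjusted p from 0.12 to 0.98. Col5a3, a minor chain that joins type V fibrils, was higher in DLP (0.51 ± 0.13 and 0.46 ± 0.14, limma adjusted p = 0.0024 and 0.0083), and its HFD VP levels were all under the array median. Col5a1 passed the threshold in control mice at 0.29 (limma adjusted p = 0.044), but its other probe set above the filter pointed the other way (-0.21). Col27a1 passed in HFD mice at 0.39 (limma adjusted p = 0.0038), with 0.10 on its second probe set.

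Among the multiplexin and transmembrane collagens, Col15a1, which sits at the outer face of the basement membrane, was higher in DLP (0.65 ± 0.22 and 0.80 ± 0.23, limma adjusted p = 0.017 and 0.0068). The HFD VP levels of Col15a1, 0.75 to 1.87, were under the array median except on HFD VP 3. Control VP 5 had 0.80 of Col15a1, against 1.70 to 2.05 on the other control VP arrays, and without it the limma adjusted p in control mice was 0.058. Col23a1 was higher in DLP on the chosen probe set (0.46 and 0.55), with 0.02 in each diet on another and 0.64 and 0.85 on a further one. Col13a1 was lower in DLP (-0.49 in each diet), where all its levels, 1.05 to 1.73, were under the array median, so it reached the filter through VP alone. Col17a1, a hemidesmosome collagen of basal epithelial cells, passed in HFD mice at 0.43 ± 0.13 (limma adjusted p = 0.0086). Its HFD VP levels, 1.61 to 1.94, were under the array median except on HFD VP 3.

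Of the 10 laminin and nidogen genes tested, Lamb1 was higher in DLP in control mice and 4 passed in HFD mice. Over all genes tested 55% passed in control mice and 52.9% in HFD mice. Laminins are trimers of an alpha, a beta and a gamma chain that cells bind through integrins and dystroglycan. Lamb1, the beta 1 chain, had differences of 0.60 ± 0.19 and 0.67 ± 0.20 (limma adjusted p = 0.012 and 0.0091), and its second probe set above the filter gave 0.04 and 0.47. Lama3 and Lamb3, chains of the epithelial laminin under basal cells, had 0.33 ± 0.13 and 0.52 ± 0.15 in HFD mice (limma adjusted p = 0.036 and 0.0063), and 0.24 and 0.32 in control mice (limma adjusted p = 0.1 and 0.062).

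Lama5, the alpha chain of most adult epithelial basement membranes, went the other way in HFD mice. It had 4.39, 4.37, 4.37 and 4.29 in HFD DLP, against 4.92, 4.76, 5.07, 5.03 and 4.63 in HFD VP, with no overlap (-0.52 ± 0.12, limma adjusted p = 0.0014, and -0.20 on its second probe set). In control mice it had 4.09, 4.61, 4.53, 4.29 and 4.62 in DLP and 4.73, 4.64, 4.37, 4.92 and 4.39 in VP, which overlap (-0.18, limma adjusted p = 0.19). Nid1, which links laminin to type IV collagen, did not pass on the probe set chosen (0.10 and 0.32), whereas its second probe set gave -0.67 and -0.60.

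Lum, a proteoglycan that binds collagen fibrils, stood next to Col4a6 in the size of its higher DLP level in control mice. It had 3.51, 3.73, 4.04 and 3.31 in HFD DLP and 4.42, 3.45, 3.41, 4.01 and 3.87 in control DLP, against 1.90, 1.81, 2.90, 2.17 and 2.26 in HFD VP and 2.87, 2.12, 2.79, 2.21 and 1.77 in control VP. The lobes did not overlap, and the differences were 1.48 ± 0.24 (2.79-fold, limma adjusted p = 2.5e-05) in control mice and 1.44 ± 0.25 (limma adjusted p = 7.1e-05) in HFD mice. The related proteoglycans Dcn and Bgn did not pass in either diet (0.07 and 0.04 for Dcn, -0.31 and -0.43 for Bgn).

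None of the lysyl oxidase, elastin, fibronectin, Sparc, tenascin C or periostin genes passed between lobes. Postn, an adhesive protein of remodelling stroma, had the largest of these differences, 0.64 in control mice and 0.68 in HFD mice (limma adjusted p = 0.07 and 0.072). Lox, which starts the cross-linking of collagen, had -0.15 and 0.20 on the chosen probe set and -0.59 and -0.64 on its second.

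The lobes also differed in markers of the cells that make these proteins. Over all genes tested 28.2% were higher and 26.8% lower in DLP of control mice, and 26.8% and 26.1% in HFD mice. Of 8 smooth muscle markers 6 were higher in DLP in each diet, and their summed linear level was 3161 to 3435 in HFD DLP, 2731 to 3089 in control DLP, 2184 to 3052 in HFD VP and 2163 to 2760 in control VP. All 4 basal epithelial markers tested were higher in DLP of control mice, with summed levels of 62.1 to 72.2 in HFD DLP, 56.6 to 89.6 in control DLP, 33.5 to 64.6 in HFD VP and 33.2 to 62.0 in control VP, and Krt17 was never above the array median. Of 7 fibroblast markers tested 1 was higher and 1 lower in DLP of control mice, with summed levels of 131 to 166 in HFD DLP, 127 to 189 in control DLP, 73.7 to 181 in HFD VP and 88.2 to 164 in control VP. The summed basal and fibroblast levels overlapped between the lobes in both diets, and those of smooth muscle overlapped in control mice only. The part of these cell types in the lobe differences of the matrix genes was not tested.

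**Figure D3:**
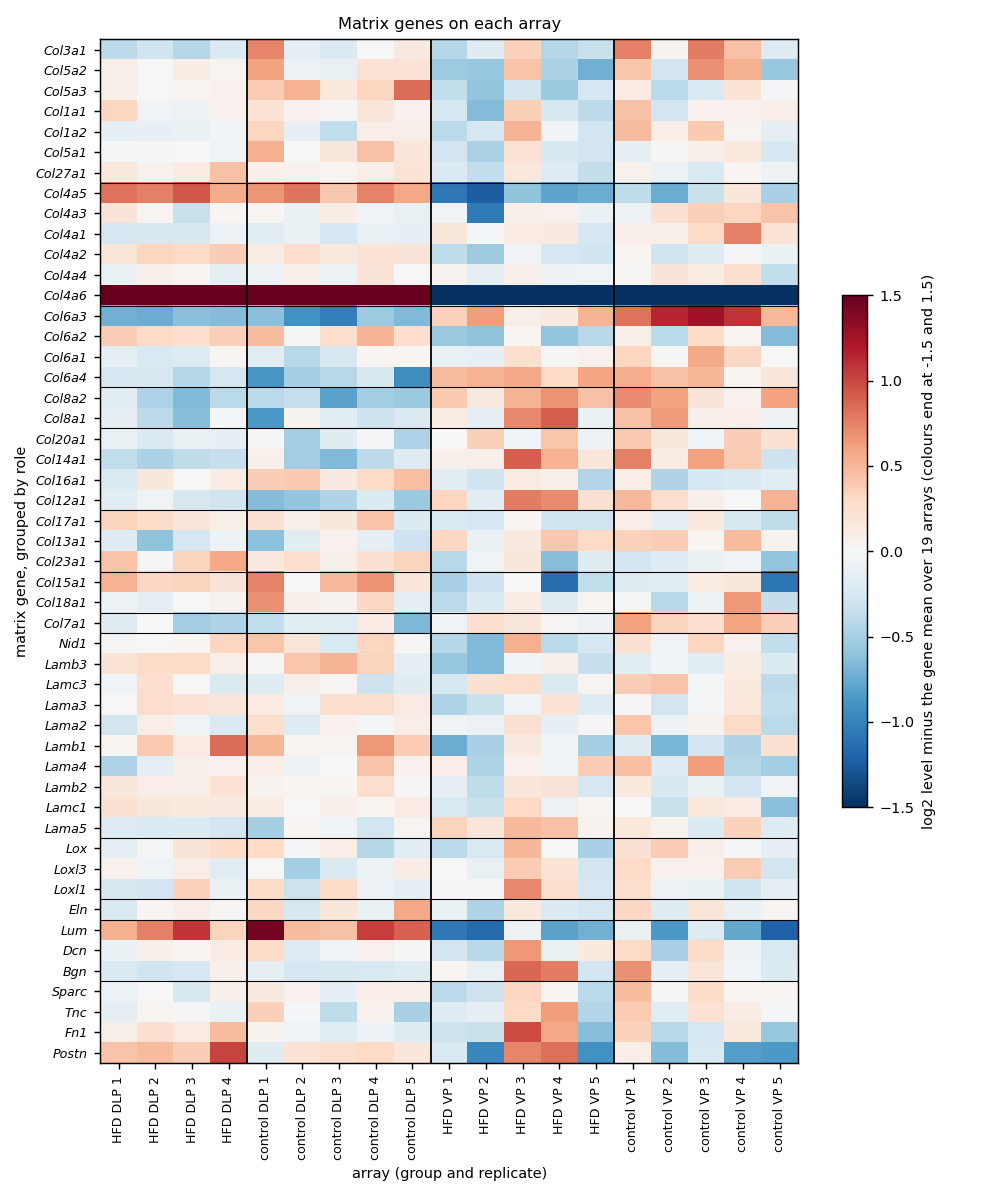
Each row is 1 of the 50 matrix genes, grouped by role, and each column 1 of the 19 arrays in the order HFD DLP, control DLP, HFD VP and control VP. Colour is the log2 level minus the mean of the gene over all arrays, and Col4a6, Col4a5, Col6a3 and Lum show the DLP and VP blocks most clearly.

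The high fat diet was associated with a lower level of 1 matrix gene in VP and of none in DLP. In VP, Col6a3 fell by 0.62 on the log2 scale, where 1.11% of all genes tested passed the threshold (0.529% higher and 0.58% lower). No other matrix gene passed. Of the 50 genes 35 had a negative difference in VP, against 5610 of all 11728 genes, with a median of -0.09 against 0.01 for all genes. Here too the identical sorted values tend to keep the all-gene median near 0. An unadjusted p under 0.05 was reached by 12 of the 50 and by 1786 of all genes, and no matrix gene had groups without overlap in VP, where 2.58% of all genes had.

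**Figure D4:**
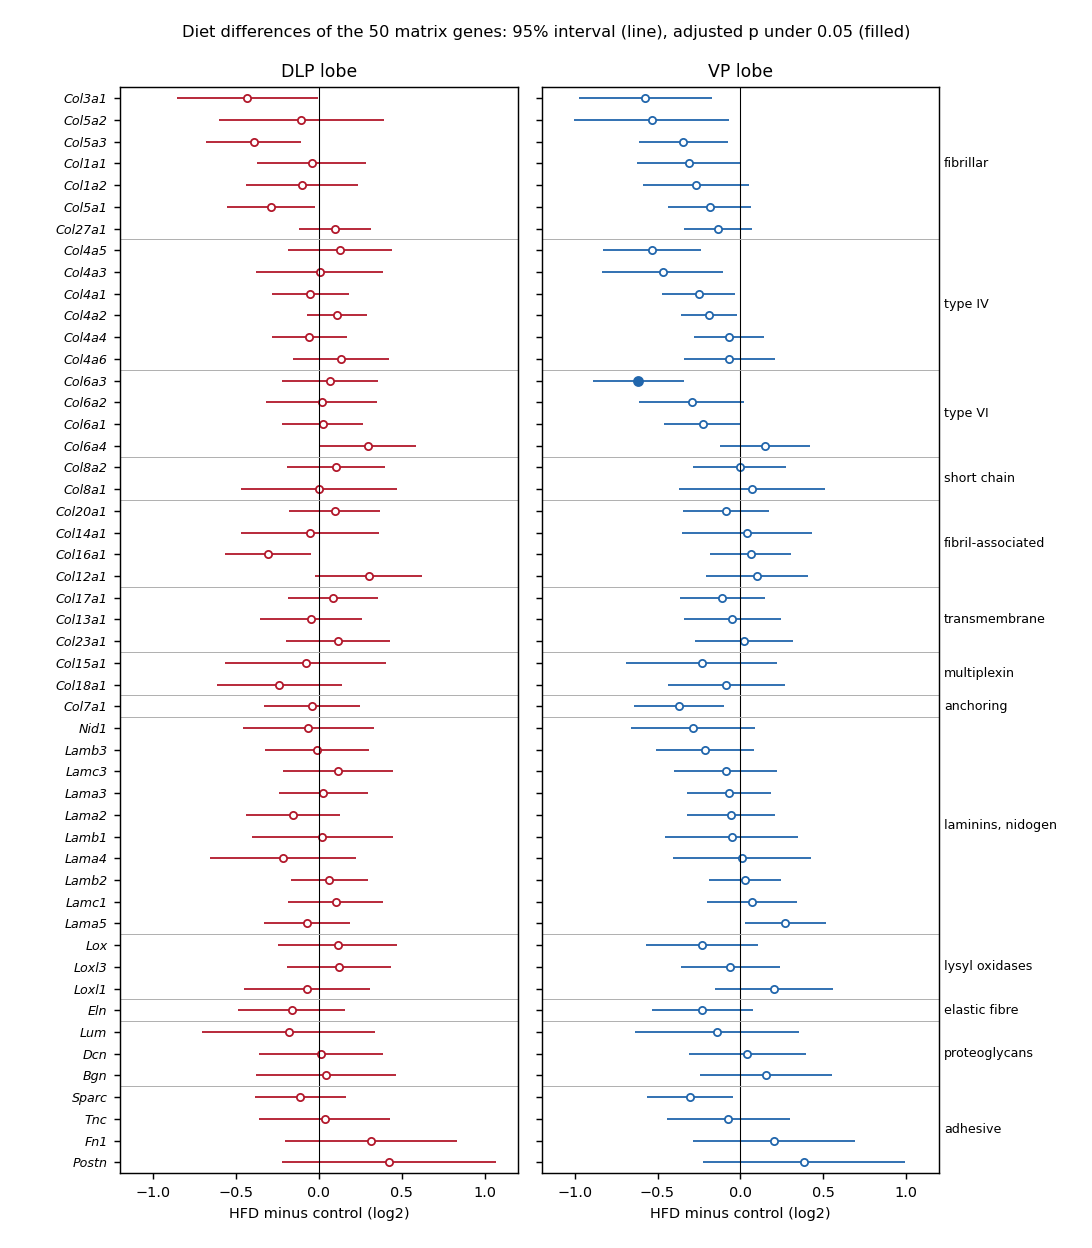
HFD minus control difference (log2) of each of the 50 matrix genes in DLP (left) and VP (right), with 95% confidence intervals, grouped by role. The filled point is Col6a3 in VP at -0.62, the only difference past the threshold.

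The levels of Col6a3 given above were 6.41 ± 0.23 in HFD VP and 7.03 ± 0.31 in control VP (SD, n = 5 each). The lowest control array (control VP 5, at 6.56) lay inside the range of the HFD arrays, whereas the other 4 control arrays lay above all of them. The difference was -0.62 ± 0.13 (1.53-fold, limma adjusted p = 0.032), and the exact permutation p was 0.024 for that single gene. Leaving out control VP 2, 3 or 4, or HFD VP 1, 3 or 4, moved its limma adjusted p to between 0.053 and 0.065 (without control VP 2, Col4a5 passed instead, at 0.044), and without both HFD VP 3 and control VP 4 it was 0.083.

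In DLP Col6a3 had a difference of 0.07 (limma adjusted p = 1), and the diet effects of the lobes differed by 0.69 ± 0.19, DLP minus VP, which did not pass the threshold (limma adjusted p = 0.37). No matrix gene passed that test of the difference between lobes, where 0.00853% of all genes did, and 4 of 50 had an unadjusted p under 0.05, against 991 of all 11728 genes. These were Col6a3, Col4a5 (0.66 ± 0.21, limma adjusted p = 0.4), Col4a2 (0.30 ± 0.12, limma adjusted p = 0.5) and Col16a1 (-0.37 ± 0.17, limma adjusted p = 0.57).

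The other type IV, type VI and fibrillar genes in VP did not pass the threshold. All 6 type IV genes had negative differences in VP (median -0.22). Col4a5 had -0.53 ± 0.14 (limma adjusted p = 0.067) on the chosen probe set and -0.02 on its second. All 7 fibrillar genes also had negative differences (median -0.31), from -0.13 for Col27a1 to -0.57 for Col3a1. Col3a1, a main chain of the stroma, had 6.29, 6.53, 7.06, 6.29 and 6.39 in HFD VP and 7.47, 6.78, 7.49, 7.16 and 6.53 in control VP, and HFD VP 3 and control VP 5 overlapped with the other group (-0.57 ± 0.19, limma adjusted p = 0.15). The second probe set of Col3a1 gave -0.21.

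The next differences in VP were those of Col5a2 (-0.54, limma adjusted p = 0.26) and Col4a3 (-0.47, limma adjusted p = 0.19). Their second probe sets gave -0.12 and -0.18. Levels of Col4a3 were near the array median, with 0.80 on HFD VP 2 and 1.76 to 1.94 on the other HFD VP arrays. Col7a1 had -0.37 (limma adjusted p = 0.17) and Sparc, a collagen-binding matricellular protein, had -0.30 (limma adjusted p = 0.24). The highest positive differences were 0.38 for Postn (limma adjusted p = 0.57), 0.27 for Lama5 (limma adjusted p = 0.27), 0.21 for Loxl1, 0.20 for Fn1 and 0.15 for Bgn. Fn1 turned to -0.03 without HFD VP 3, and Bgn to -0.04 with array weights. Postn ranged from 4.16 to 5.97 among HFD VP arrays and from 4.28 to 5.24 among control VP arrays, so its groups overlapped widely. In the remaining roles the smallest p in VP belonged to Eln (-0.23), Lox (-0.23 on the chosen probe set and 0.03 on its second), Col15a1 (-0.23), Col17a1 (-0.11), Col20a1 (-0.09) and Col8a1 (0.07).

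Marker levels in VP differed beside these values. HFD VP 3, the HFD VP array with the highest Col3a1, Col5a2 and Fn1, also had the highest fibroblast and macrophage summaries. Control VP 2 and control VP 3 had the highest summaries of cycling-cell markers (1.27 and 1.45), and all 5 of those markers had negative diet differences in VP (median -0.73). None of the 7 fibroblast or 5 cycling-cell markers tested passed the threshold by diet in VP. The 4 adipocyte markers on the array summed to 25.3 to 34.5 in HFD VP and 33.5 to 57.9 in control VP, with Lep never above the array median and Adipoq never above it in HFD VP. Their part in the diet differences was not tested.

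In DLP no matrix gene passed the threshold by diet, where 0% of all genes did. The smallest limma adjusted p was 0.78, for Col5a3, and 5 of 50 had an unadjusted p under 0.05 (Col5a3, Col16a1, Col5a1, Col6a4 and Col3a1), against 662 of all genes. Col5a3 had 2.03, 1.94, 1.97 and 2.00 in HFD DLP, against 2.31, 2.45, 2.09, 2.26 and 2.77 in control DLP, which do not overlap (-0.39 ± 0.14, exact permutation p = 0.016 for that gene alone). It had -0.34 ± 0.13 in VP (limma adjusted p = 0.2), with groups that overlapped.

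Groups in DLP did not overlap for 4 matrix genes (Col5a3 lower, and Fn1, Postn and Lamc1 higher in HFD DLP), where 3.15% of all genes did not overlap, and none of the 4 passed the threshold. Fn1, fibronectin, had 6.34, 6.50, 6.38 and 6.72 in HFD DLP and 6.31, 6.19, 6.10, 6.17 and 6.08 in control DLP (0.32 ± 0.25, limma adjusted p = 1). Postn had 5.56, 5.62, 5.50 and 6.15 in HFD DLP and 4.96, 5.34, 5.38, 5.43 and 5.31 in control DLP (0.42 ± 0.31, limma adjusted p = 0.99). Each SE pools the spread of all 4 groups and so does not describe DLP alone. The SD of Fn1 was 0.17 in HFD DLP and 0.09 in control DLP, against 0.69 in HFD VP and 0.39 in control VP. That of Postn was 0.30, 0.19, 0.86 and 0.41 in the same order. The other extremes in DLP were -0.43 for Col3a1, -0.31 for Col16a1, -0.29 for Col5a1, -0.24 for Col18a1, 0.30 for Col12a1 (-0.14 on its second probe set), 0.30 for Col6a4 and 0.13 for Col4a6. In the remaining roles the smallest p in DLP belonged to Lum (-0.18), Eln (-0.16), Lama2 (-0.16), Col7a1 (-0.04), Loxl3 (0.12), Col23a1 (0.12), Col4a2 (0.11) and Col8a2 (0.10).

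Averaged over the lobes, no matrix gene passed the threshold by diet, where 0.119% of all genes did (0.0597% higher and 0.0597% lower). The smallest limma adjusted p was 0.11, for Col5a3 (-0.37 ± 0.09), followed by Col3a1 (-0.50 ± 0.14, limma adjusted p = 0.15), and 7 of 50 had an unadjusted p under 0.05, against 1388 of all 11728 genes. The next by role were Col6a3 (-0.27), Sparc (-0.21), Col7a1 (-0.20), Col12a1 (0.20), Eln (-0.20) and Col4a1 (-0.15).

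Genes that handle collagen after translation were tested in the same fit. By diet in VP, 1 of 11 genes of collagen folding, modification and secretion fell, 1 of 10 of propeptide processing and fibril control fell, and 1 of 5 other basement membrane genes rose, where 0.529% of all genes tested rose and 0.58% fell. No matrix receptor (of 16), matrix protease or inhibitor (of 10) or TGF-beta gene (of 12) passed by diet in VP, and none of these 6 lists had a member past the threshold in DLP.

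Serpinh1 encodes HSP47, the chaperone of procollagen in the endoplasmic reticulum. It had 4.50, 4.33, 5.05, 4.83 and 4.60 in HFD VP, against 5.37, 5.22, 5.59, 5.26 and 5.01 in control VP. HFD VP 3 lay just above the lowest control array, and the other HFD arrays lay below all control arrays. It fell by 0.63 on the log2 scale (SE 0.12, limma adjusted p = 0.018), its second probe set gave -0.47, and it kept its call without each array in turn (largest limma adjusted p = 0.037). It did not pass with the mean of its probe sets (limma adjusted p = 0.064) or with only the VP arrays in the fit (limma adjusted p = 0.19).

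Pcolce encodes the enhancer of procollagen C-proteinase. It had 5.57, 5.57, 6.26, 5.91 and 5.90 in HFD VP, against 6.79, 6.21, 6.40, 6.13 and 6.39 in control VP. HFD VP 3 overlapped with the control arrays, and the difference was -0.54 ± 0.13 (limma adjusted p = 0.045), with -0.19 on the second probe set. It passed in 3 of the 19 fits that left out 1 array, with limma adjusted p up to 0.098.

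Hspg2 encodes perlecan, the heparan sulfate proteoglycan of basement membranes. It had 3.83, 3.60, 3.56, 3.80 and 3.67 in HFD VP, against 3.18, 3.28, 2.96, 3.35 and 3.28 in control VP, with no overlap (0.48 ± 0.11, limma adjusted p = 0.039). Its second probe set pointed the other way (-0.39), and with the mean of the probe sets the difference was 0.04 (limma adjusted p = 0.82). It passed in 9 of the 19 fits that left out 1 array, with limma adjusted p up to 0.081.

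**Figure D5:**
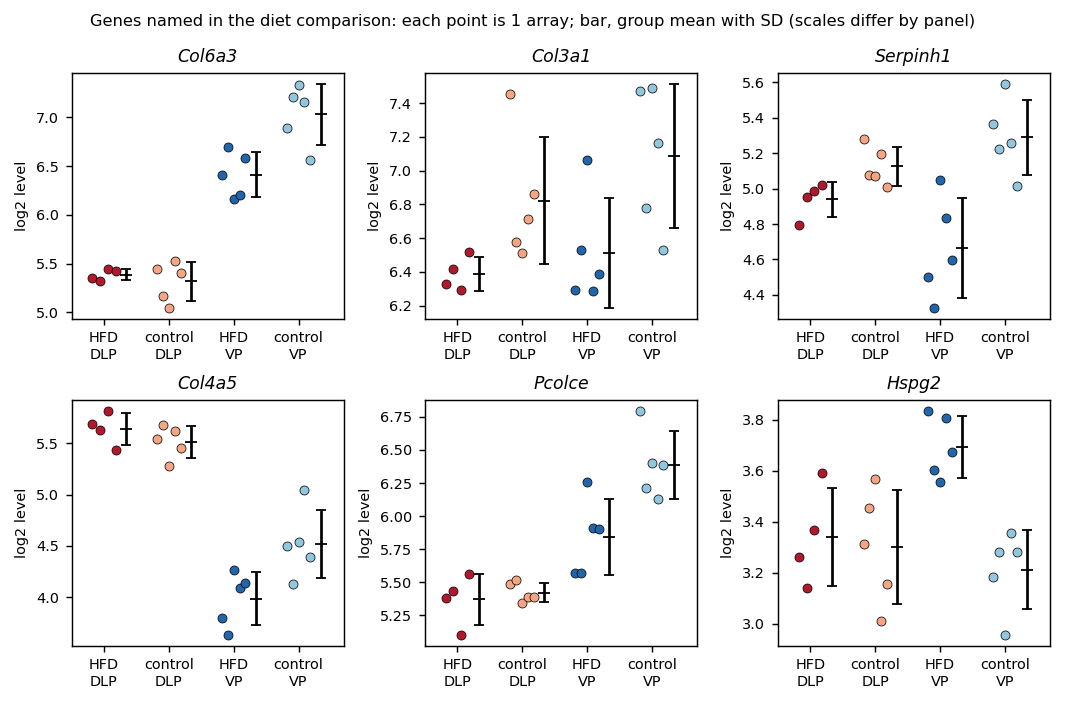
Levels (log2) of 6 genes named in the diet comparison, with 1 point per array in HFD DLP, control DLP, HFD VP and control VP and bars at the group mean with SD. Serpinh1 and Col6a3 are lower in HFD VP than in control VP with overlap of 1 array, and Hspg2 is higher without overlap on this probe set.

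Between lobes, 6 of 11 genes of collagen folding, modification and secretion were higher and 1 was lower in DLP of control mice, and 5 were higher and 1 lower in HFD mice. Over all genes the shares were 28.2% higher and 26.8% lower in control mice and 26.8% higher and 26.1% lower in HFD mice, and these apply to the other lists of related genes too. P4ha2, an alpha subunit of prolyl 4-hydroxylase, was higher in DLP (1.71 ± 0.15 in control mice, limma adjusted p = 1e-08, and 1.48 ± 0.16 in HFD mice). Plod2, which hydroxylates lysines in the telopeptides used for cross-links, was lower in DLP (-1.79 ± 0.11, limma adjusted p = 6.4e-11, and -1.42 ± 0.12). Plod1 and Mia3, a lysyl hydroxylase and a collagen export receptor, were higher by 0.55 and 0.44 in control DLP.

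Of 10 genes of propeptide processing and fibril control 5 were lower in DLP of control mice and 4 of HFD mice, and none was higher in either. Thbs1 (thrombospondin 1) had -1.07 and -1.23, Pcolce -0.96 and -0.47, and Mfap5 -0.81 and -0.63. Fmod, a fibril-binding proteoglycan, had -0.59 in control mice on the chosen probe set and between -0.20 and -0.02 on 5 others. Bmp1, the procollagen C-proteinase, had -0.66 in HFD mice (limma adjusted p = 0.0026).

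Timp4, an inhibitor of matrix metalloproteinases, had 5.41 ± 0.38 in control DLP and 8.29 ± 0.38 in control VP (SD, n = 5 each), a difference of -2.88 ± 0.25 (7.34-fold, limma adjusted p = 7.5e-09), with -2.86 on its second probe set. In HFD mice the difference of Timp4 was -3.12 ± 0.26. Timp2 had -1.77 and -2.17, but 1 of its 4 other measured probe sets was higher in DLP (0.93 and 0.60). Timp3 was higher in DLP (0.55 and 0.57), and Timp1 did not pass in either diet (0.13 and 0.15). Of the 10 genes of this list 1 was higher and 3 lower in control mice and 1 higher and 2 lower in HFD mice.

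Of 16 matrix receptors 6 were higher and 4 lower in DLP of control mice, and 7 were higher and 5 lower in HFD mice. Cd44, the hyaluronan receptor, had 1.65 and 1.60, Itga3, the alpha chain of a laminin-binding integrin, had 1.04 and 0.92, Sdc4 (syndecan 4) had -1.05 and -1.16, and Itga8 had -1.01 and -1.07. Of 12 TGF-beta genes 4 were higher and 4 lower in control mice and 4 higher and 5 lower in HFD mice. The receptor Tgfbr2 had -1.71 and -1.88, the inhibitor Smad7 had 1.16 and 0.97, the ligand Tgfb2 had 0.91 in each diet, and the target Ccn2 had -1.01 and -1.24. The lobes overlapped for Ccn2 in both diets. Its levels were 4.57 to 5.44 in control DLP, 5.25 to 6.44 in control VP, 4.44 to 4.97 in HFD DLP and 4.58 to 7.52 in HFD VP.

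Of 5 other basement membrane genes, Frem2 was higher in DLP of control mice (0.53, limma adjusted p = 0.012). In HFD mice Frem2 was higher (0.43, limma adjusted p = 0.049), and Fras1 (-0.47) and Hspg2 (-0.35, but 0.15 on its second probe set) were lower. Frem2 had enough arrays above the array median for the filter only because of DLP, and Fras1 only because of VP. In each case this was the lobe with the higher level, so these calls and counts carry that limit.

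The 15 matrix genes that did not reach the filter were Col10a1, Col11a1, Col11a2, Col19a1, Col22a1, Col24a1, Col25a1, Col26a1, Col2a1, Col6a5, Col9a1, Col9a2, Col9a3, Lama1 and Loxl4. Types II, IX, X and XI among them are known as collagens of cartilage. Their highest levels on any array ran from 0.87 to 2.12. Col9a1 exceeded the array median on 2 arrays, Col6a5 and Lama1 on 1 each, and the other 12 on none.

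Of the 50 genes tested 26 had more than 1 probe set above the filter. Their probe sets pointed the same way for 19 in the VP diet comparison, 17 in the DLP diet comparison, 21 between lobes in control mice and 18 between lobes in HFD mice. Among genes past the threshold between lobes the probe sets shared a direction for 10 of 11 in control mice and 10 of 10 in HFD mice, and the exception was Col5a1. The other members whose probe sets differed in direction were not past the threshold in the comparison concerned. By diet in VP the chosen and the other probe sets gave 0.15 and down to -0.02 for Bgn, 0.02 and down to -0.06 for Col23a1, -0.13 and 0.03 for Col27a1, 0.07 and -0.03 for Col8a1, and 0.04 and -0.03 for Dcn. By diet in DLP they gave -0.06 and 0.10 for Col4a4, 0.02 and -0.14 for Col6a2, -0.11 and 0.21 for Col5a2, 0.10 and -0.03 for Col27a1, and 0.10 and down to -0.26 for Col20a1. Between lobes they gave 0.03 and -0.04 for Col1a1 in control mice, and 0.20 and -0.17 for Col4a3 and 0.09 and -0.05 for Sparc in HFD mice.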

How the data were processed

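The values were the deposited table of 19 arrays, 45101 probe sets each, on a logarithmic scale taken as log10 from the spacing of the hybridization controls. Per the submitters' processing notes the authors used MAS5. Sorted deposited log10 values were identical on all arrays, by a step that no source used here gives. The deposited values were taken as log10 of the signal plus 1. The log2 levels used here keep that offset of 1, so they are the deposited values rescaled to log2 with nothing further added. Of the probe sets, 34945 had 1 gene symbol in GEO's platform annotation, 932 had several and 9160 had none, and 34741 symbols were found through the gene identifier in RefSeq.

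A gene was tested if its probe set was above the array median on at least 4 arrays. limma 3.58.1 in R 4.3.3 fitted 4 group means on 19 arrays with a mean-dependent prior, and p-values were Benjamini-Hochberg adjusted over 11728 genes. The contrasts were diet in each lobe, their difference, their average, and lobe in each diet. The fit was also run on simulated data with the same spread in all groups, which cannot test the effect of the unequal spread of these groups. Exact two-sided permutation tests served single genes. Intervals are 95% intervals.

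The members and the lists of roles, pathway genes and markers were chosen with earlier results of these data known. Named with values were members past the threshold by diet, the smallest p per role, the 5 lowest and 5 highest diet differences per lobe, members past the threshold between lobes whose groups did not overlap (up to 25), those that passed in 1 diet only, the main ones whose probe sets differed in direction, up to 4 genes per pathway list and lobe contrast, and any past the threshold by diet. Other members between lobes, among them Col5a3, Lamb1, Col8a1 and Col13a1, were added after their values were seen. Alternatives were another offset, filters, the mean of probe sets, cyclic loess, no mean-dependent prior, array weights, replicate blocks, fewer groups and left-out arrays. Promoter windows are RefSeq's on GRCm38.p6. Deviations of arrays with the same replicate number correlated at -0.10 to 0.46 between diets in VP, -0.15 to 0.17 between diets in DLP, 0.0017 to 0.146 between lobes in HFD mice and -0.066 to 0.189 between lobes in control mice. Not every pair was over 0.1 in any of these, so the numbers were not taken to pair samples. Between diets in VP the mean was 0.186 for equal and -0.047 for unequal numbers, and 3 of 5 equal pairs were over 0.1. What arrays with equal numbers shared was not tested. The mean between lobes was 0.088 for equal and -0.022 for unequal numbers in HFD mice, and 0.068 and -0.017 in control mice. The check cannot exclude that arrays of the 2 lobes came from the same mice, and the lobe tests treat them as independent.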

Additional observations from a re-analysis of the deposited data

Results flagged for a closer look

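Among 200 groups of levels, 50 genes in 4 groups of arrays, 11 held 1 array apart from the others, where chance gives about 1 in 20 (10 groups). In HFD DLP these were Col20a1 (2.35 on HFD DLP 2, others from 2.45 to 2.46), Col4a1 (5.92 on HFD DLP 4, others 5.76 to 5.78), Col6a4 (1.52 on HFD DLP 3, others 1.69 to 1.71) and Nid1 (4.62 on HFD DLP 4, others 4.27 to 4.33). In control DLP they were Lamb2 (4.20 on control DLP 4, others 3.96 to 4.00), Postn (4.96 on control DLP 1, others 5.31 to 5.43) and Sparc (6.79 on control DLP 3, the other 4 higher and at most 7.07). In HFD VP they were Col17a1 (1.94 on HFD VP 3, others 1.61 to 1.69), Col4a3 (0.80 on HFD VP 2, others 1.76 to 1.94) and Col5a2 (4.55 on HFD VP 3, others 3.41 to 3.65). In control VP it was Col15a1 (0.80 on control VP 5, others 1.70 to 2.05).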

How the results depend on the processing

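The count of matrix genes past the threshold by diet in VP was 1 and fell to 0 under array weights, 1 weight per lobe, only the arrays of the groups compared, and without both HFD VP 3 and control VP 4. It was 2 with a filter at the 75th percentile, where 27 matrix genes were tested and Col4a5 joined Col6a3 (limma adjusted p = 0.049). Over 19 fits that each left out 1 array it ranged from 0 to 1. With the replicate number as a block it was 0 (Col6a3, limma adjusted p = 0.056). The numbers were not taken to pair samples, although between diets in VP the mean correlation was 0.186 for equal and -0.047 for unequal numbers. Between lobes the counts of 22 became 12 in control mice and 10 in HFD mice with the 75th percentile filter, since fewer genes were tested, and ranged from 19 to 25 and from 19 to 27 with 1 array left out. The counts of 0 by diet in DLP, for the average and for the difference of diet effects were 0 in every fit run. With the number as a block within diet the lobe counts were 22 in control mice and 25 in HFD mice, and 3 of the 4 HFD DLP arrays correlated best with the HFD VP array of their own number, as did 2 of 5 in control mice. For single genes 147 called values lost the threshold, 2 gained it and 4084 kept their direction and side.

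Some differences that were not called turned sign. In VP these were Bgn (-0.0369 with array weights, -0.0329 without HFD VP 3 and control VP 4), Col8a1 (-0.0746 and -0.0710 under the same settings, and from -0.0819 to 0.178 with 1 array left out, negative when HFD VP 3, HFD VP 4 or control VP 5 was dropped) and Fn1 (-0.0277 without HFD VP 3, and up to 0.377). In DLP it was Col7a1 (from -0.146 to 0.0530 with 1 array left out, positive when HFD DLP 3, HFD DLP 4 or control DLP 4 was dropped). For the average these were Col8a2 (-0.0070) and Loxl1 (-0.0345) without HFD VP 3 and control VP 4, and Loxl1 with 1 array left out (from -0.0064, without HFD VP 3, to 0.115, and negative without HFD DLP 3). The cause was not tested. Serpinh1 missed the threshold with the mean of its probe sets (limma adjusted p = 0.064) and with only VP arrays (0.19). A further fit chosen after seeing the data, without HFD VP 2 and HFD DLP 1, kept Col6a3 (limma adjusted p = 0.037). Probe sets near the array median carry the least certain differences.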
